A study of Mus musculus with 7 samples.

Results

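The SLC25 carriers are a family of transporters, most of them in the mitochondrial inner membrane. Their transcripts were followed in light zone germinal centre B cells labelled MIZ1KO or Control. The set holds the protein-coding genes of GENCODE vM21 whose symbols begin with Slc25a, together with Ucp2, that had counts in any library: 43 genes of the 13358 protein-coding genes with counts. Another 5 genes of the family, Slc25a31, Slc25a34, Slc25a41, Slc25a48 and Slc25a54, had no counts in any library. A count of 0 allows up to 3 counts per library, which is 0.3 to 0.483 CPM depending on the library, counting error only. Levels in CPM are counts scaled to a common library size, ribosomal RNA included.

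The cells were sorted as light zone germinal centre B cells from the spleens of mice given sheep red blood cells intravenously 10 days earlier. Their RNA was sequenced in bulk, from 3 libraries with the genotype label MIZ1KO, whose titles read MizFF, and 4 labelled Control, whose titles read eYFP. All 7 received the same immunisation, and no source used here gives the strain, the age and sex of the animals, the Cre driver or the exact alleles. MIZ1, the zinc finger transcription factor encoded by Zbtb17, activates genes by itself and represses others when bound to MYC. Nothing in the labels ties each replicate to a separate animal; the p-values below measure sample-to-sample spread, part of which may be technical.

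Carriers of this family share a fold of repeated membrane helix pairs, and most exchange metabolites, nucleotides, cofactors or ions between cytosol and mitochondrial matrix. They are encoded in the nucleus and made in the cytosol, and those of the inner membrane are inserted there by the TOM and TIM22 translocases. Germinal centre B cells divide quickly and are known to rely on mitochondrial oxidation, which places ADP/ATP, phosphate, carnitine and dicarboxylate carriers on the routes that feed it.

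Libraries held 3087992 to 5085019 estimated counts outside ribosomal RNA, and 11005 to 18776 of their counts lay in the 43 carrier genes. Zbtb17 had 48, 37 and 28 counts in MIZ1KO replicates 1 to 3 and 24, 22, 24 and 70 in Control replicates 1 to 4. All 3 MIZ1KO counts lay within the Control range, so no loss of Zbtb17 transcript is seen. The exact alleles are not given, and whole-gene counts can also cover transcript outside a deleted part, so they do not check the genotype labels. B cell, germinal centre and light zone markers were all present in both groups, as were dark zone markers. The light zone genes summed to 484.8 to 593.6 CPM in MIZ1KO and 436.7 to 648.1 CPM in Control. The dark zone genes summed to 276.3 to 290 CPM and 253.4 to 305.2 CPM, so presence alone does not show the zone. The B cell gene Cd79a was higher in MIZ1KO (log2 fold change 0.86, adjusted p = 0.0333, edgeR). So was the T cell gene Trbc2 (4.775, adjusted p = 0.019, edgeR), on 0 to 39 counts. Of the markers of other cells, the 5 T cell genes summed to 2.69 to 17.4 CPM in MIZ1KO and to between 0 and 1.57 CPM in Control, and the 6 erythroid genes to 61.0 to 489 CPM and 115 to 425 CPM. The plasma cell genes summed to 177 to 255.5 CPM in MIZ1KO and 205 to 376.8 CPM in Control. Myeloid genes summed to 5.91 to 22.98 CPM in MIZ1KO and 7.12 to 12.07 CPM in Control. For the stromal and endothelial genes the sums were 25.25 to 33.21 CPM in MIZ1KO and 33.18 to 45.41 CPM in Control. The mostly unspliced TEC models of GENCODE set the groups apart. They are taken here as a measure of nuclear RNA, which was not tested. Among counts outside ribosomal RNA they took 0.544% to 0.923% in MIZ1KO libraries and 1.02% to 2.58% in Control libraries, without overlap. The nuclear RNA Malat1 took 0.256% to 0.490% and 0.687% to 1.52%, and Xist 0.386% to 0.586% and 0.769% to 2.17%. The part of these differences in the results below was not tested unless a value is given, and in bulk RNA fewer cells of a type cannot be told apart from less RNA per cell.

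The carnitine/acylcarnitine carrier Slc25a20 and the pyrimidine nucleotide carrier Slc25a36 were lower in MIZ1KO, and the other tested carriers did not pass. Summed, the 43 genes took 0.392%, 0.369% and 0.361% of non-ribosomal counts in MIZ1KO replicates 1 to 3, above the 0.351%, 0.337%, 0.330% and 0.331% of Control replicates 1 to 4. Protein-coding genes as a whole also took more there, 93.8% to 94.9% against 89.2% to 93.3%, and the part of this in the carrier sum was not tested. In CPM the sums of the groups overlapped, 1792 to 1913 in MIZ1KO and 1481 to 1904 in Control. Without Ucp2 their means were 958 CPM in MIZ1KO and 984 CPM in Control. Of the 43 genes, 34 passed the filter on low counts and were tested. Of these 34, 0 rose, 2 fell and 32 did not pass an adjusted p of 0.05 in the quasi-likelihood test of edgeR over 11618 genes. At an unadjusted p under 0.05 there were 8 of 34, or 23.5%, against 21.2% of the 9805 protein-coding genes tested. The share called, 5.88%, lay near the 4.13% of protein-coding genes called in either direction (2.08% higher, 2.05% lower), so the count alone is not a result about carriers. In 4 carriers every MIZ1KO library lay above every Control library and in 4 every one lay below, 11.8% each, where 9.89% and 7.91% of protein-coding genes did so. The log2 fold changes, given throughout as MIZ1KO over Control, had a median of 0.01 over the 34 carriers, with 17 above 0 and 17 below; over protein-coding genes the median was 0.03, with 52.6% above 0. Single libraries moved the count of calls: without MIZ1KO replicate 1, Control replicate 2 or Control replicate 4 no carrier was called, and without Control replicate 1 Slc25a39 rose while Slc25a36, Slc25a37 and Slc25a40 fell.

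**Figure D1:**
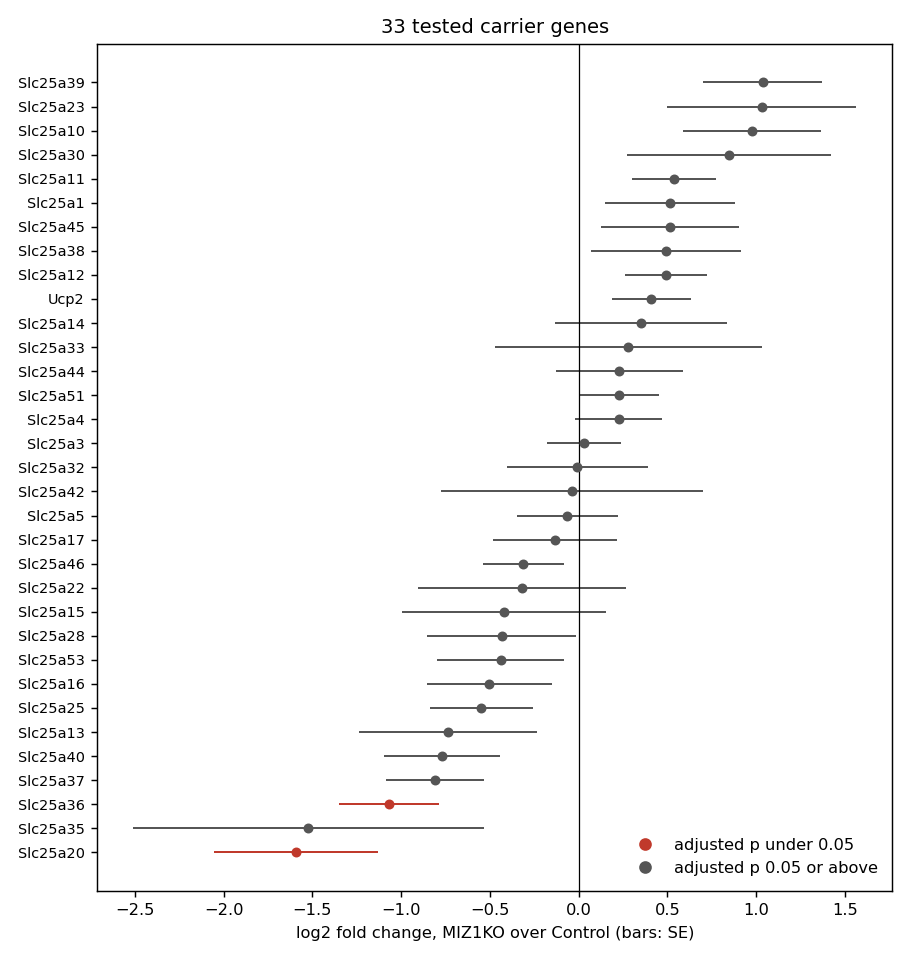
Log2 fold change of MIZ1KO over Control (horizontal axis) for 33 of the 34 tested carrier genes, with bars of 1 SE and red points for an adjusted p under 0.05. The values run from -1.59 for Slc25a20 to 1.04 for Slc25a39, and only Slc25a20 and Slc25a36 are red.

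The sequences upstream of both called genes and of the glutathione carrier Slc25a40 are shown so that the motifs of the MYC and MIZ1 network can be read in place. They are RefSeq promoter windows on GRCm38.p6, written 5′ to 3′ on the gene's strand from 250 bases before the RefSeq start to the base before the RefSeq start or the GENCODE vM21 gene model, whichever comes first. The window of Slc25a39 lies inside its gene model and is not printed. Capitals mark the E-box CACGTG, bound by MYC and other helix-loop-helix factors, and the cyclic AMP response element TGACGTCA, which was added after the sequence had been seen. The third motif searched was ATCGAT, contained in a longer sequence described for MIZ1. The 3 motifs read the same on both strands, and they do not overlap each other.
Slc25a20, chr9:108661886-108662087, plus strand: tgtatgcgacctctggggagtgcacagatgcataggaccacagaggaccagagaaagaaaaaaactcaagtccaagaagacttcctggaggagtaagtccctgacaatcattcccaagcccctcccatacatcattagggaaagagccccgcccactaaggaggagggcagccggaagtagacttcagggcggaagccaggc
Slc25a36, chr9:97111158-97111291, minus strand: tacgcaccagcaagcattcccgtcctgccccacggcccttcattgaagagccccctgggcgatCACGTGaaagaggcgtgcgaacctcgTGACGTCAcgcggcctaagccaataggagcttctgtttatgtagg
Slc25a40, chr5:8422588-8422837, plus strand: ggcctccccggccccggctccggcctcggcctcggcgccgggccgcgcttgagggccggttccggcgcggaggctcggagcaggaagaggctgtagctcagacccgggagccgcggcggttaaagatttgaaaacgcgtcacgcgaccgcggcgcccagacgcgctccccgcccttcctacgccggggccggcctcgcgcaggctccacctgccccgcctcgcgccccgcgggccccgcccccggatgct

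Only the Slc25a36 sequence among these 3 held a motif: its E-box begins 187 bases and its response element 161 bases before the RefSeq start. The GC content was 54% in the Slc25a20 sequence, 59% in that of Slc25a36 and 78% in that of Slc25a40. Over the full 300-base windows, 33 of the 43 carrier genes matched a RefSeq promoter. Of these, 6 held CACGTG (Slc25a1, Slc25a13, Slc25a14, Slc25a15, Slc25a33 and Slc25a36), 1 held ATCGAT (Slc25a17) and 2 held TGACGTCA (Slc25a25 and Slc25a36). Among the 7803 tested protein-coding genes with a window, 12.3%, 0.974% and 3.88% held them, and among all 32851 windows 7.15%, 0.93% and 1.79%. A match is a run of letters and not a measured site, and the carriers with an E-box ran from log2 fold changes of -1.07 for Slc25a36 and -0.73 for Slc25a13 to 0.52 for Slc25a1.

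Slc25a20 carries acylcarnitines into the matrix in exchange for carnitine, the step after CPT1 in the oxidation of long-chain fatty acids. It measured 1.40, 3.70 and 6.27 CPM in MIZ1KO replicates 1 to 3 and 15.5, 11.5, 7.22 and 9.22 CPM in Control replicates 1 to 4. All 3 MIZ1KO libraries lay below the lowest Control library. The log2 fold change was -1.59 ± 0.46 (SE) with an adjusted p of 0.0497 in edgeR, just under the threshold, on 13 to 118 counts per library. The gene (ENSMUSG00000032602) occupies bases 108662088 to 108684641 of chromosome 9 (GRCm38) and overlaps no other gene model. The direction held in all 17 alternative fits, with log2 fold changes from -2.18 to -0.65. The -0.65 came from the deposited log2 values, whose scale may differ, and the next weakest value was -1.12. The call held in 4 of the 17, with adjusted p from 0.0257 to 0.239. It ended without MIZ1KO replicate 1 (0.239) or 2 (0.106) and without Control replicate 1 (0.0675), 2 (0.11) or 4 (0.107). It also ended with the nuclear RNA share as a covariate (0.178) and in 7 further fits at adjusted p from 0.0507 to 0.0814. With that covariate, which cannot be told apart from genotype, the log2 fold change of Slc25a20 was -2.18 ± 0.78. The fatty acid enzymes beside it gave other values: Cpt1a, the outer membrane step, measured a log2 fold change of -0.09 ± 0.23 (adjusted p = 0.86, edgeR), Cpt2 0.27 ± 0.43 (0.745) and Crat, the carnitine acetyltransferase, 0.69 ± 0.30 (0.171).

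Slc25a36 moves pyrimidine nucleotides across the inner membrane, as does its paralog Slc25a33. Slc25a36 measured 15.8, 29.9 and 13.2 CPM in MIZ1KO and 42.2, 33.1, 41.3 and 50.1 CPM in Control. The groups did not overlap, although MIZ1KO replicate 2 came close to Control replicate 2. The log2 fold change was -1.07 ± 0.28 with an adjusted p of 0.0349 (edgeR) on 82 to 500 counts. The gene (ENSMUSG00000032449) lies on chromosome 9 from 97074961 to 97111157, where the antisense model Gm16185 overlaps it. How strands were handled is not stated, so it is not known whether reads of this pair were separated. Slc25a36 was lower in all 17 alternative fits, from -1.45 to -0.68, and called in 10, with adjusted p from 0.0113 to 0.352. The -0.68 again came from the deposited log2 values, and the next weakest value was -0.86. The call ended without MIZ1KO replicate 1 (0.195) or 3 (0.124), without Control replicate 2 (0.0562), 3 (0.0511) or 4 (0.124), with the replicate block (0.055) and with the nuclear RNA share as a covariate (0.352). With that covariate the log2 fold change of Slc25a36 was -1.03 ± 0.51. Slc25a33 was far scarcer, at 4 to 20 counts per library, and its log2 fold change was 0.28 ± 0.75 (adjusted p = 0.863, edgeR).

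**Figure D2:**
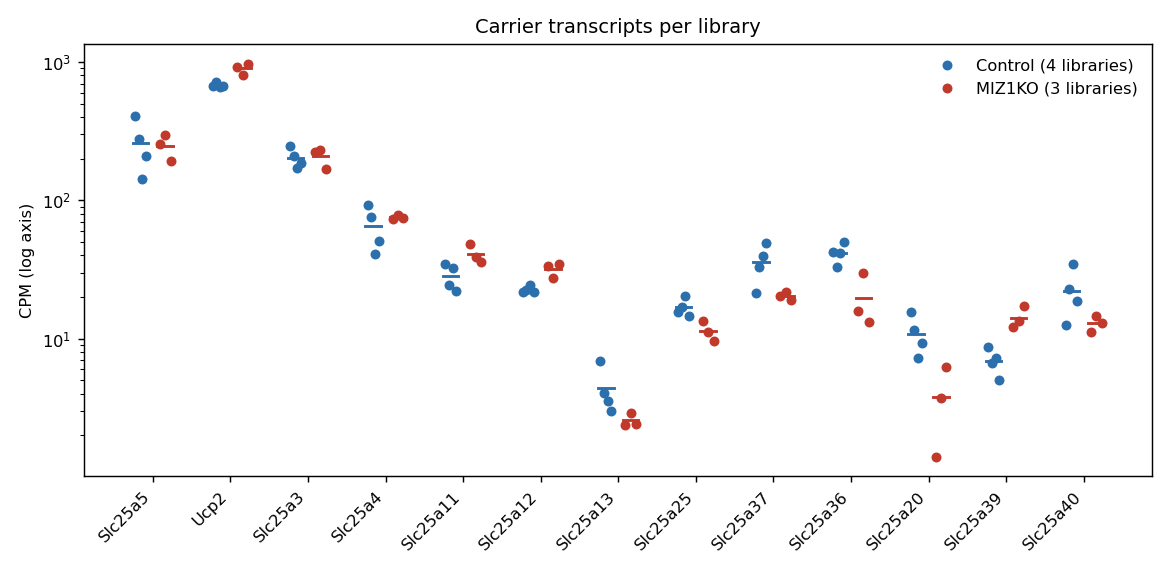
CPM on a log axis of 13 carrier genes in each library, blue for the 4 Control and red for the 3 MIZ1KO libraries, with horizontal lines at the group means. The groups do not overlap for Ucp2, Slc25a11, Slc25a12, Slc25a13, Slc25a25, Slc25a36, Slc25a20 and Slc25a39, and they overlap for the other 5.

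The mitochondrial glutathione carriers Slc25a39 and Slc25a40, which keep the matrix supplied with this thiol, differed in opposite directions without passing the test over all genes. Slc25a39 measured 12.0, 13.3 and 17.2 CPM in MIZ1KO and 8.66, 6.69, 7.22 and 5.01 CPM in Control, every MIZ1KO library above every Control library. Its log2 fold change was 1.04 ± 0.33 with an adjusted p of 0.0711 (edgeR), the largest positive value among the tested carriers. It passed in 2 of 17 alternative fits, in DESeq2 (0.0314) and without Control replicate 1 (0.0414), and reached at most 0.552 in the others. Slc25a40 measured 11.1, 14.6 and 13.0 CPM in MIZ1KO and 12.5, 22.9, 34.4 and 18.7 CPM in Control. Control replicate 1 lay within the range of MIZ1KO, and the log2 fold change was -0.77 ± 0.33 (adjusted p = 0.157, edgeR). Without that library it was -0.97 with an adjusted p of 0.0437, and with the nuclear RNA share as a covariate it turned to 0.49, with the highest adjusted p over its alternatives, 0.736.

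The balance between the glutathione carriers, which does not depend on how libraries are scaled, was therefore set out library by library. Slc25a39 gave 52.1%, 47.7% and 56.9% of the summed counts of the pair in MIZ1KO and 41.0%, 22.6%, 17.3% and 21.2% in Control. The groups did not overlap, Control replicate 1 being the Control library nearest to MIZ1KO. The exact 95% binomial interval of that library, 33.3% to 49.0%, overlapped that of MIZ1KO replicate 2, 41.7% to 53.7%, while the other Control libraries had intervals ending at or below 29.2%. The means were 52.2% ± 4.62 (SD, n = 3) and 25.5% ± 10.5 (SD, n = 4), a difference of 26.7 percentage points. An exact permutation test, two-sided and over all 35 splits, gave p = 0.0571, adjusted to 0.171 over the 6 balances tested; no p under 0.0286 is possible with these group sizes. Left out 1 at a time, the libraries gave differences from 24.0 to 31.8 percentage points. Slc25a40 has an exonic length of 8386 bases and Slc25a39 of 2756 bases, so this share of counts is not a share of molecules.

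The aspartate/glutamate carriers of the malate-aspartate shuttle showed the other balance without overlap. Slc25a12 (aralar) measured 33.3, 27.4 and 34.8 CPM in MIZ1KO and 21.8, 22.6, 24.3 and 21.6 CPM in Control, with all MIZ1KO libraries above all Control libraries and a log2 fold change of 0.49 ± 0.23 (adjusted p = 0.194, edgeR). Slc25a13 (citrin) measured 2.36, 2.90 and 2.41 CPM against 6.82, 4.04, 3.54 and 3.01 CPM, with all MIZ1KO libraries below and a log2 fold change of -0.73 ± 0.50 (adjusted p = 0.39, edgeR) on 15 to 52 counts. Slc25a12 gave 93.4%, 90.4% and 93.5% of the pair's counts in MIZ1KO and 76.1%, 84.8%, 87.3% and 87.8% in Control (exact permutation p = 0.0571, adjusted p = 0.171). Per exonic length the difference was 13.0 percentage points in place of 8.43, with an unadjusted exact permutation p of 0.0286, the smallest possible. Both carriers export aspartate from the matrix, and Slc25a12 was the dominant one in every library.

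**Figure D3:**
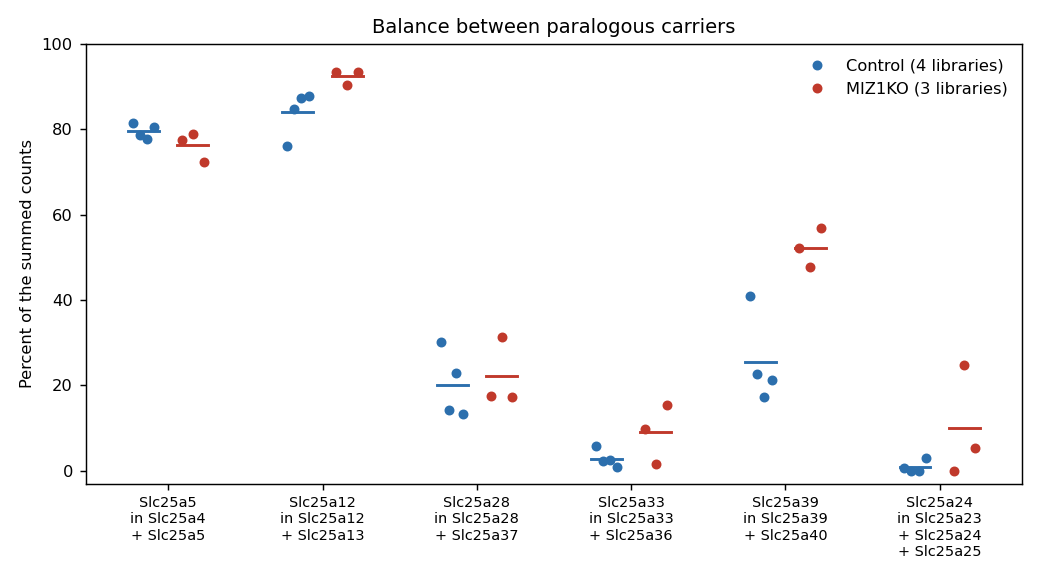
Percent of the summed counts of a paralog group that came from the carrier named first, per library, blue for Control and red for MIZ1KO, with lines at the group means. The groups are apart for Slc25a39 within the glutathione carriers and Slc25a12 within the aspartate/glutamate carriers, and they overlap in the other 4.

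The other 4 balances overlapped between the groups. Slc25a5 gave 76.3% ± 3.52 (SD, n = 3) of the counts of the ADP/ATP carriers Slc25a4 and Slc25a5 in MIZ1KO and 79.6% ± 1.73 (SD, n = 4) in Control (exact permutation p = 0.171, adjusted p = 0.24); without MIZ1KO replicate 3 the difference went from -3.34 to -1.35 percentage points. Slc25a28 (mitoferrin-2) gave 22.1% ± 8.10 of the counts of the mitoferrins, the iron importers, against 20.2% ± 7.97 (exact permutation p = 0.743). Slc25a33 gave 8.97% ± 6.95 of the pyrimidine nucleotide carriers against 2.85% ± 2.13 (exact permutation p = 0.2, adjusted p = 0.24). That difference of 6.12 percentage points was 2.88 without MIZ1KO replicate 3, 9.79 without MIZ1KO replicate 2 and 18.1 per exonic length. Among the calcium-regulated ATP-Mg/phosphate carriers Slc25a23, Slc25a24 and Slc25a25, the share of Slc25a24 rested on 1 library: it had 54 counts in MIZ1KO replicate 2, 4 in replicate 3 and 0 in replicate 1, and at most 5 in Control (exact permutation p = 0.143, adjusted p = 0.24). The difference of 9.08 percentage points was 1.71 without that library, 14.1 without MIZ1KO replicate 1 and 14.7 per exonic length.

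By exonic length, the most abundant carriers were Slc25a5 at 155 RPKM (CPM per kilobase of exon, mean of 7 libraries), Ucp2 at 111, Slc25a3 at 37.1, Slc25a4 at 29.5 and Slc25a11 at 15.9 RPKM. Processed copies of Slc25a5, such as the annotated Slc25a5-ps, can share reads with it. The first 4 took 76.8% ± 0.327 of the per-length level of all 43 carriers in the 3 MIZ1KO libraries and 75.2% ± 4.43 in the 4 Control libraries (SD). The levels of Slc25a5 spread widely within Control: 408, 279, 142 and 208 CPM, against 255, 295 and 193 CPM in MIZ1KO, whose whole range lay within that of Control. Slc25a4 measured 92.1, 75.9, 40.7 and 50.5 CPM in Control, highest and lowest in the same libraries as Slc25a5, and 73.8, 78.5 and 74.2 CPM in MIZ1KO. Slc25a3, which brings in the phosphate for ATP synthesis, measured 246, 210, 172 and 187 CPM in Control and 225, 231 and 168 CPM in MIZ1KO. None of these 3 passed the test: the log2 fold changes were -0.06 ± 0.29 for Slc25a5, 0.22 ± 0.25 for Slc25a4 and 0.03 ± 0.21 for Slc25a3 (adjusted p from 0.62 to 0.948, edgeR). The sign of Slc25a5 turned in 4 of 17 alternative fits, in 2 by leaving out MIZ1KO replicate 3 or Control replicate 1.

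Ucp2, an uncoupling protein homolog that exports dicarboxylic acids from the matrix and is prominent in lymphoid tissue, carried the most counts of the family. It measured 927, 804 and 975 CPM in MIZ1KO and 668, 719, 659 and 668 CPM in Control. Every MIZ1KO library lay above every Control library, and the spread within Control was small. The log2 fold change was 0.41 ± 0.22 with an adjusted p of 0.269 (edgeR), so the gene did not pass. It stayed above 0 in all 17 alternative fits, from 0.31 to 0.55, with adjusted p from 0.0807 to 0.579. The 0.31 came from the deposited log2 values, and the next lowest value was 0.36. Ucp2 (ENSMUSG00000033685) lies on chromosome 7 from 100493337 to 100502020 and overlaps Dnajb13 on the other strand. Ucp2 made up 48.6% ± 5.76 of all carrier counts in the 3 MIZ1KO libraries and 41.1% ± 4.15 in the 4 Control libraries (SD). With it, the 43 genes summed to 1860 ± 61.7 CPM in MIZ1KO and 1663 ± 187 CPM in Control; without it, to 958 ± 129 and 984 ± 182 CPM.

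The di- and tricarboxylate carriers tested were all above 0. Slc25a11, the oxoglutarate/malate carrier of the malate-aspartate shuttle, measured 48.7, 38.6 and 35.7 CPM in MIZ1KO and 34.9, 24.6, 32.2 and 21.9 CPM in Control, without overlap, with a log2 fold change of 0.54 ± 0.24 (adjusted p = 0.174, edgeR). Its lowest MIZ1KO and highest Control libraries were close, and its model overlaps Rnf167 on the other strand. Slc25a10, the dicarboxylate carrier, measured 0.98 ± 0.39 (adjusted p = 0.131, edgeR) and Slc25a1, the citrate carrier that exports carbon for lipid synthesis, 0.52 ± 0.37 (adjusted p = 0.41, edgeR). Slc25a21, the oxoadipate carrier, had 1 count in all and was not tested.

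Both mitoferrins were below 0. Slc25a37 (mitoferrin-1), best known from erythroid cells, measured 20.3, 21.8 and 19.1 CPM in MIZ1KO and 21.3, 33.0, 39.6 and 48.9 CPM in Control. The ranges overlapped by Control replicate 1 alone. The log2 fold change was -0.81 ± 0.28 (adjusted p = 0.084, edgeR); without Control replicate 1 it was -0.99, with an adjusted p of 0.0141, the lowest over its alternatives. With the nuclear RNA share as a covariate it turned to 0.20, with the highest, 0.884. Of the 6 erythroid marker genes, whose sums are given above, 0 passed the test in edgeR, with 0 at an unadjusted p under 0.05, and their part in the values of Slc25a37 was not tested. Slc25a28 had a log2 fold change of -0.43 ± 0.42 (adjusted p = 0.565, edgeR). Gm20236, a TEC model on the same strand, and 3 models on the other strand overlap Slc25a37.

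Slc25a25, an ATP-Mg/phosphate carrier that shifts the matrix adenine nucleotide pool, measured 13.3, 11.1 and 9.65 CPM in MIZ1KO and 15.6, 16.8, 20.3 and 14.4 CPM in Control. The MIZ1KO libraries all lay below those of Control, yet the log2 fold change of -0.55 ± 0.29 did not pass (adjusted p = 0.253, edgeR). Its paralog Slc25a23 measured 1.03 ± 0.53 (adjusted p = 0.241, edgeR) on 11 to 53 counts.

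The cofactor carriers other than Slc25a36 stayed between log2 fold changes of -0.50 and 0.28, and none of the 7 passed. Slc25a51, the NAD carrier, measured 42.9 ± 9.56 CPM over the 3 MIZ1KO and 36.9 ± 4.10 CPM over the 4 Control libraries (SD), and Slc25a32, which carries folate, 10.3 ± 5.64 and 10.8 ± 4.19 CPM. Of the amino acid and amine carriers tested, Slc25a20 aside, Slc25a38, the glycine carrier that feeds haem synthesis, had a log2 fold change of 0.49 ± 0.42, Slc25a44, which carries branched-chain amino acids, 0.23 ± 0.36 and Slc25a15, the ornithine carrier, -0.42 ± 0.58 (adjusted p from 0.506 to 0.742, edgeR). Slc25a46, an outer membrane protein of mitochondrial dynamics, measured 42.5 ± 7.18 CPM in MIZ1KO and 53.1 ± 11.9 CPM in Control (adjusted p = 0.425, edgeR).

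The 9 carriers with counts that did not pass the filter were Slc25a2, Slc25a18, Slc25a21, Slc25a24, Slc25a26, Slc25a27, Slc25a29, Slc25a43 and Slc25a47. Slc25a26, the S-adenosylmethionine carrier, had 5 to 45 counts per library and Slc25a18, a glutamate carrier, 0 to 34, the latter in Control replicate 3. Slc25a27 had 1 count in all. In edgeR without the filter, 0 of these 9 passed an adjusted p of 0.05 and 1 had an unadjusted p under 0.05: Slc25a24, with an adjusted p of 0.0876, whose counts lay mostly in MIZ1KO replicate 2.

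Of 16 TOM and TIM22 pathway genes, all tested, 1 rose, 0 fell and 8 lay above 0, with a median of -0.02. With 2.08% of protein-coding genes called higher, 4.13% called either way and 52.6% above 0, these counts are near the background. The gene that rose was Tomm40, the pore of the outer membrane. It measured 30.8, 32.5 and 30.7 CPM in MIZ1KO and 19.9, 16.2, 14.3 and 14.3 CPM in Control, a log2 fold change of 0.96 ± 0.24 (adjusted p = 0.0315, edgeR). Tomm20, a receptor of the same complex, measured -0.88 ± 0.26 (adjusted p = 0.0521, edgeR), Timm13, a chaperone of the intermembrane space, 0.81 ± 0.32 (adjusted p = 0.126, edgeR) and Tomm6 0.79 ± 0.41 (adjusted p = 0.24, edgeR). Tomm40 stayed above 0 in all 17 alternative fits and was called in 10, with adjusted p from 0.00453 upward. The call ended without MIZ1KO replicate 1 (0.118), 2 (0.0504) or 3 (0.0672) and without Control replicate 2 (0.0749) or 4 (0.0841). It also ended with the replicate block (0.0753) and with the nuclear RNA share as a covariate (0.634). With that covariate the log2 fold change of Tomm40 was 0.53 ± 0.45.

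Of the 22 enzymes that use or supply carrier substrates, 0 rose, 1 fell and 21 did not pass; 15 of the 22 lay above 0, with a median of 0.33, and the call of 1 in 22 is near the 4.13% of protein-coding genes. Shmt2, of mitochondrial serine and folate metabolism, measured 0.65 ± 0.23 (adjusted p = 0.088, edgeR), Cs, citrate synthase, 0.48 ± 0.19 (adjusted p = 0.129, edgeR) and Mdh2, the mitochondrial malate dehydrogenase, 0.52 ± 0.21 (adjusted p = 0.141, edgeR). The count of these enzymes called ran from 0 without MIZ1KO replicate 1 or 3 or Control replicate 2 or 4 to 4 without Control replicate 1. Of the related genes outside the set, Mtch1, Mtch2, Sfxn1, Sfxn2 and Sfxn3 were tested and 0 passed, Ucp1 had no counts, and Ucp3 was below the filter.

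Longer carriers tended to lie lower in MIZ1KO. Across the 34 tested carriers the log2 fold change and the exonic length had a Spearman rho of -0.46, and across the 9805 protein-coding genes tested a rho of -0.24; genes of the same libraries are not independent, and no p is given. Of the 17 shorter carriers, 1646 to 4571 bases, 12 lay above 0 with a median of 0.28, and of the 17 longer ones, 4799 to 9594 bases, 5 lay above 0 with a median of -0.32. Slc25a36 and Slc25a40 were the longest of all, whereas Slc25a12 and Ucp2, also long, lay above 0. The TEC share that differed between the groups, 0.690% ± 0.204 over the 3 MIZ1KO and 1.79% ± 0.653 over the 4 Control libraries (SD), stands beside this pattern, and its part in it was not tested.

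**Figure D4:**
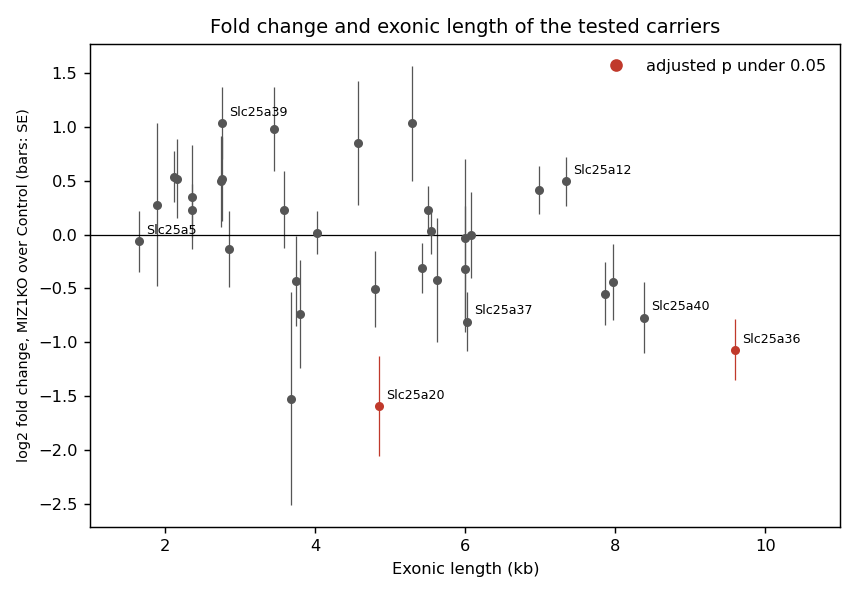
Log2 fold change of MIZ1KO over Control (vertical axis, bars of 1 SE) against exonic length in kilobases for the 34 tested carriers, with red for an adjusted p under 0.05. The points drift downward with length, a Spearman rho of -0.46, with Slc25a36 at the long end and Slc25a12 among the exceptions.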

How the data were processed

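Bulk RNA was sequenced from 7 samples, 3 MIZ1KO and 4 Control, grouped by the genotype label and numbered as in the titles. The authors deposited expected counts per gene, estimated reads that need not be whole and are not normalized, and a table of log2 values across the 7 libraries whose name speaks of variance stabilisation and whose function no source used here states. STAR 2.5.2, RSEM 1.3.0, DESeq2 1.18.1, R 3.4.3 and GRCm38 are named per the submitters' processing notes, without role; how strands, annotation and multiply matching reads were handled stands in no source used here.

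Counts were rounded, which moved none by more than 0.5, filtered with filterByExpr and scaled by TMM. The groups were compared by the robust quasi-likelihood test of edgeR 4.0.16 (newer fit, R 4.3.3), two-sided, with Benjamini-Hochberg adjustment over 11618 genes; the threshold was an adjusted p of 0.05. The SE was the log2 fold change over the root of F. The test was checked on simulated counts. Paralog shares with at least 20 summed counts in every library were compared by exact permutation. Intervals are exact (Clopper-Pearson, 95%) and cover counting error only. Symbols, classes, lengths and coordinates came from GENCODE vM21.

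The members and lists were chosen with earlier results of these data known. Given in full were Ucp2, members past the threshold, members without overlap between the groups, the 5 highest per length and the members of the shares; from the other lists, called genes and those with the smallest p. Of the remaining members and list genes, those named were chosen for their role. The values of 1 tested carrier and 1 enzyme are not reported here, though both stand in the counts. Alternatives were DESeq2 1.42.0, library totals, no filter, the legacy fit, limma-voom (limma 3.58.1), protein-coding genes only, ribosomal RNA left out, a nuclear RNA index (log2 percent of TEC models, Malat1 and Xist) as covariate, a replicate block, the deposited log2 values, an adjusted p of 0.1 and each library left out. No libraries were duplicates (chi-square over its degrees of freedom at least 15.7 within groups).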

Additional observations from a re-analysis of the deposited data

Results flagged for a closer look

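Ucp2 in Control replicate 2, at 719 CPM, stood apart from the other 3 Control libraries, which lay between 659 and 668 CPM. All 3 MIZ1KO libraries, from 804 CPM, were still higher. Each of 16 carriers and 6 balances was looked at in this way, and chance sets apart about 1 group in 20.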

How the results depend on the processing

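Of 288 alternative values of the 16 carriers given in full and Tomm40, 244 kept their direction and their side of the threshold. The count of carriers called lower, 2 with all libraries, was 1 without the filter, with the legacy fit, limma-voom, protein-coding genes only, ribosomal RNA left out or the deposited log2 values, and 0 with the nuclear RNA index or the replicate block. The count called higher was 1 (Slc25a39) in DESeq2 and 1 at an adjusted p of 0.1. All genes called numbered 692, but 1120 in DESeq2, 1506 at an adjusted p of 0.1, 342 in limma-voom, 314 among protein-coding genes and 57 with the index, which does not overlap between the groups, so that it and genotype cannot be told apart. Transport genes called were 2 in DESeq2, at an adjusted p of 0.1 and among protein-coding genes; substrate enzymes called were 2 at an adjusted p of 0.1 and 0 with the index. Leaving out 1 library gave 0 to 1 carriers higher, 0 to 3 lower, 39 to 1350 genes in all, 0 to 3 transport genes and 0 to 4 enzymes. Signs turned for carriers past no threshold: Slc25a5 to 0.008 in limma-voom and 0.029 on the deposited values, and with the index Slc25a3 to -0.60, Slc25a4 to -0.72, Slc25a33 to -1.24, Slc25a37 to 0.20 and Slc25a40 to 0.49. Leaving out 1 library, Slc25a5 ran from -0.22 to 0.24, Slc25a33 from -0.10 to 0.83 and the Slc25a28 share difference from -2.74 to 5.28 percentage points. Per length, the Slc25a12 share differed by 13.0 percentage points (exact permutation p = 0.0286). The cause of these changes was not tested.

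Same-numbered libraries deviated together with correlations of 0.02, 0.07 and 0.16. MIZ1KO replicates 1 and 3 correlated best with the Control library of the same number, and MIZ1KO replicate 2 with Control replicate 1 (0.13). Deviations from the means of so few libraries depend on each other, so these values cannot decide whether the numbers pair the samples. With the replicate block Slc25a20 gave an adjusted p of 0.0705 and Slc25a36 0.055, all genes called were 476, and Slc25a3 and Slc25a33 turned to -0.01 and 0.00.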
